A study of Mus musculus with 2 samples.

Results

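The calcium handling genes of smooth muscle described here are 10 genes, found by symbol among the 32287 features of 2 single-cell libraries of the mouse thoracic aorta. They are *Cacna1c*, *Cacnb2*, *Ryr2*, *Itpr1*, *Atp2a2*, *Pln*, *Casq1*, *Casq2*, *Atp2b4* and *Stim1*. All 10 were found, each as 1 row. The animals were 12-week-old male mice of strain C57BL/6J and genotype GFPiSMC (*Myh11*-CreERT2.mT/mG), the WT of the study, in which tamoxifen (1 mg daily on 5 days at 3 weeks of age by the labels, while the study's methods describe induction at other ages) switches a membrane reporter from tdTomato to eGFP in cells that express *Myh11*. Viable single cells were sorted after digestion in the cold, with no selection for the reporter, and each aorta gave 1 droplet library (1 group, n = 2 aortas). Comparisons are therefore between cell types within these aortas, not between treatments. The question they address is in which cells of the normal aortic wall each calcium gene is expressed.

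Contraction of smooth muscle follows a rise of cytosolic calcium. Calcium enters through voltage-gated L-type channels and is released from the sarcoplasmic reticulum through ryanodine and inositol trisphosphate receptors. It is then pumped back into the store by SERCA and out of the cell by plasma membrane pumps. Phospholamban restrains SERCA, calsequestrin buffers calcium within the store, and STIM1 senses an emptied store and opens entry channels at the cell surface. In the aorta these steps set the tone of the medial smooth muscle cells (SMCs), while endothelial cells use calcium to control nitric oxide synthesis.

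After filtering, 6539 and 4614 cells were analysed. Captured RNA molecules are counted by their unique molecular identifiers (UMIs), with medians of 5671 and 5396.5 per cell. The libraries shared 18 barcodes. Clustering without the calcium genes gave 2223 and 1608 SMCs, 1635 and 1143 fibroblasts, 961 and 598 myeloid cells, 785 and 727 endothelial cells, 623 and 364 lymphocytes, 275 and 160 cells of mesothelium and 24 and 14 of the erythroid lineage. These names rest on markers alone and are short for cells like that type. The 9 SMC markers summed to 43840 and 41784 CPM (the UMIs of a gene scaled to a total of 1000000 in each cell type) in SMCs, against 627 to 2911 CPM in fibroblasts, endothelial, mesothelial, myeloid cells and lymphocytes. SMCs included a cluster of 800 cells with a low depth (median 1791 UMIs), and the counts of the 10 genes called in each comparison below were the same without it. Erythroid cells were few and were not compared with SMCs, though their sums entered the fit. Because several genes here are best known from heart and skeletal muscle, markers of those tissues were examined. In SMCs 7 cardiomyocyte markers summed to 15.3 and 13.8 CPM, mostly *Myl4* (11.1 and 11.4 CPM), with *Myl2* and *Nppa* at 1 UMI or none per aorta. The 7 skeletal muscle markers summed to 20.2 and 20.4 CPM, mostly *Ckm* (13.4 and 12.8 CPM), with *Myh4* at 0. Mesothelial cells held far more of the cardiomyocyte markers, with 1034 and 810 CPM. Cells with a UMI of *Myh6*, *Myl7*, *Myl2*, *Tnni3* or *Nppa* were then left out, and 85 and 64 mesothelial cells remained. *Myl7* was itself a leading gene of the larger mesothelial cluster. The calls of the genes against the remaining mesothelial cells were the same, but some log2 fold changes moved. That of *Cacna1c* was 1.97 in place of 2.81, and that of *Ryr2* 10.83 in place of 7.22. For *Pln* it was 9.84 in place of 6.22 and for *Casq1* 10.71 in place of 6.16. *Ryr2*, *Pln* and *Casq1* each had at most 2 UMIs in the mesothelial cells of an aorta.

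*Pln*, *Casq1* and *Casq2* each had 1 SMC subset with much of their RNA, as described further below, and the sequence upstream of their starts is given here for that reason. Each stretch runs from 250 to 51 bases before the RefSeq start, 5′ to 3′ on the strand of the gene (GRCm38.p6), and lies at chr10:53337436-53337635 (plus strand) for *Pln*, chr1:172219946-172220145 (minus strand) for *Casq1* and chr3:102086165-102086364 (plus strand) for *Casq2*. Capitals mark the GATA motif AGATAA in *Pln* (read on the other strand) and the E-box CAGCTG in *Casq1*.
Pln: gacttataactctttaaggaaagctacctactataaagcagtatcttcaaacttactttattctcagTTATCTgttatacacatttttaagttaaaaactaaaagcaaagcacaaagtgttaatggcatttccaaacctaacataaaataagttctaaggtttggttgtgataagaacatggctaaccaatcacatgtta
Casq1: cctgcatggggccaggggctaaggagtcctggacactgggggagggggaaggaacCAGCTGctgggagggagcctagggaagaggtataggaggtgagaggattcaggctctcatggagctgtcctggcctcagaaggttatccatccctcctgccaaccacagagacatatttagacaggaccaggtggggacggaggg
Casq2: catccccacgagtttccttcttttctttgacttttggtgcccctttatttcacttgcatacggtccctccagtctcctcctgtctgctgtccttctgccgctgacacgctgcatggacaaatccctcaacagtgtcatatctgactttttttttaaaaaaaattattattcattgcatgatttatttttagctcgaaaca
The base composition differed widely, with 30% G and C for *Pln*, 60% for *Casq1* and 41% for *Casq2*. Both strands were searched in the same 200 bases of all 32851 RefSeq promoters, in which AGATAA was present in 8.42%, CAGCTG in 10.3% and the CArG box in 1.16%. The 10 genes had 11 entries, for 8 genes. AGATAA was in 2 of 11 (*Atp2b4* and *Pln*), CAGCTG in 3 of 11 (*Casq1* and *Cacnb2*), and the CArG box was in 0 of 11. None of these motifs overlapped another in the stretches printed. A match of letters is a description of the sequence, not a binding site.

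The RNA of most of these genes lay mainly in SMCs, which held 41.2% ± 1.06 (SD, n = 2) of all UMIs analysed. The share was highest for *Pln* (98.0% ± 0.70), *Casq1* (96.0% ± 1.19) and *Ryr2* (93.3% ± 0.210). *Cacnb2* (85.5% ± 1.15), *Atp2a2* (73.4% ± 1.04) and *Cacna1c* (70.8% ± 1.17) followed, then *Atp2b4* (61.2% ± 1.11) and *Itpr1* (59.6% ± 1.11). *Casq2* had 85.6% ± 16.3 of very few UMIs, and 13.7% where a coarser clustering (Leiden resolution 0.5) moved part of the SMCs to a pericyte-like class. *Stim1* was the exception, with 33.7% ± 0.0710, below the share of all UMIs. Within SMCs, *Atp2a2* alone gave 52.3% and 51.9% of the UMIs of the 10 genes, and UMIs of this 3′ chemistry count molecules whatever the length of the transcript.

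**Figure D1:**
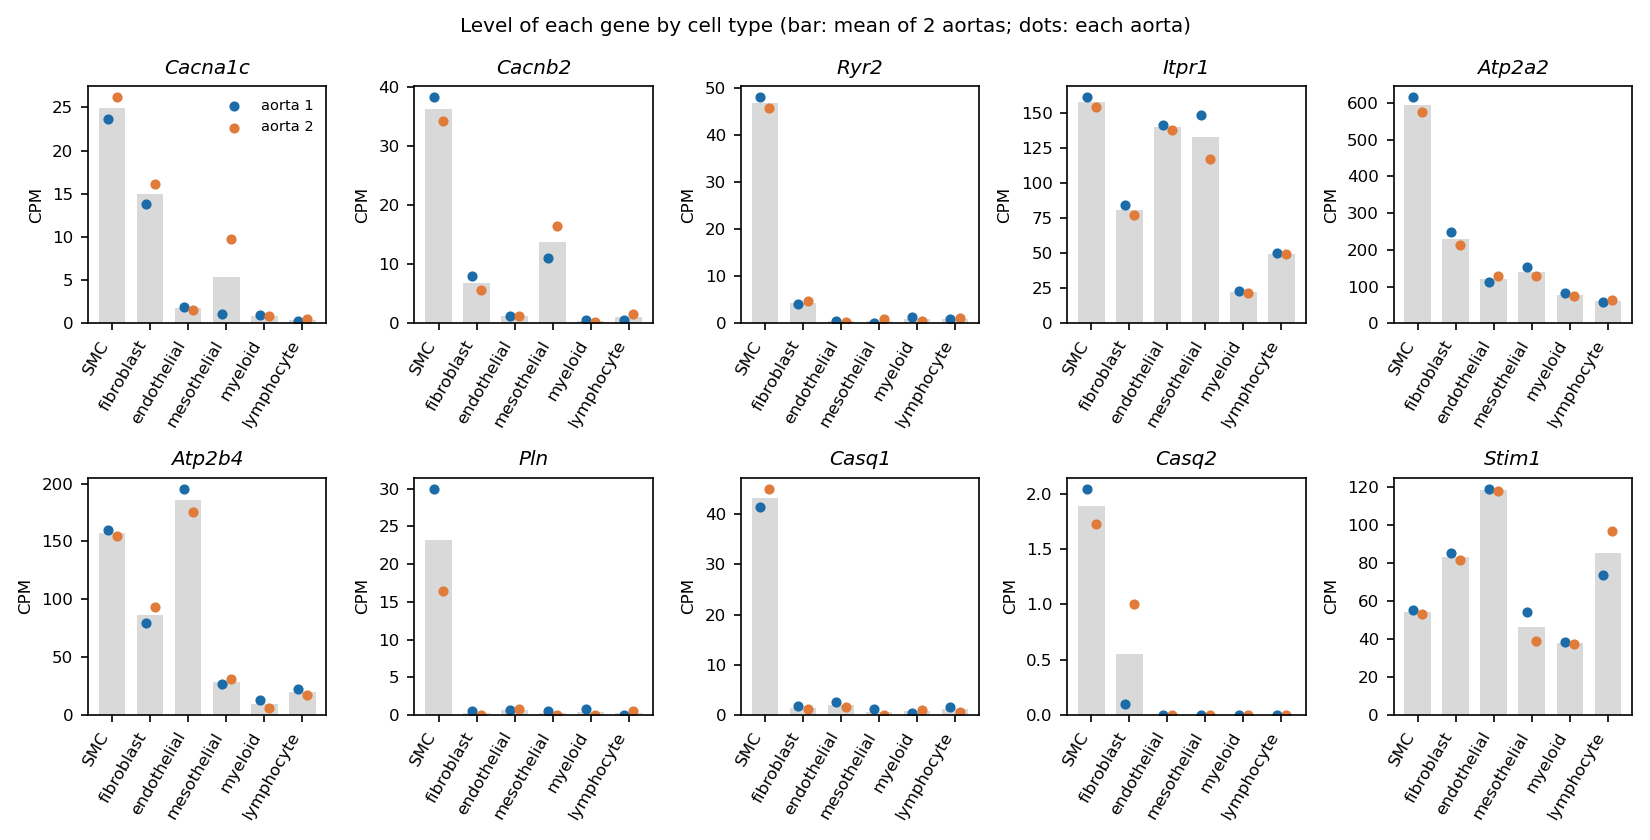
Level of the 10 genes in counts per 1000000 UMIs (CPM, y axis, linear and from 0, a scale for each gene) in 6 cell types (x axis), with bars for the mean of 2 aortas and dots for each aorta. *Pln*, *Casq1* and *Ryr2* stand almost alone in the SMC bar, *Casq2* also has a fibroblast bar from 1 and 7 UMIs, and *Stim1* and *Atp2b4* are highest in endothelial cells.

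Compared with fibroblasts, 6 of the 9 genes that passed the filter on low counts were higher in SMCs by the threshold used throughout (edgeR adjusted p under 0.05 and over 2-fold), against 9.87% of the 13968 genes tested. None was lower past it with edgeR, against 15.5% of genes. At an unadjusted p under 0.05, 1 of the 9 (*Stim1*) was lower with edgeR, here and against endothelial cells and lymphocytes, each time by less than 2-fold (backgrounds at that p 31.4%, 29.0% and 35.0%). Against myeloid and mesothelial cells 0 of the 9 were lower at that p (backgrounds 36.0% and 24.4%). The median log2 fold change of the 9 genes was 1.46, against -0.06 over all genes tested. Against endothelial cells 6 of 9 were higher (background 13.9%), against myeloid cells 8 (22.1%), against lymphocytes 8 (25.5%) and against mesothelial cells 7 (13.8%). Again none was lower past the threshold in these comparisons by edgeR (backgrounds 16.0%, 22.4%, 22.0% and 15.6%), while DESeq2 placed *Stim1* past it against endothelial cells. *Casq2* did not pass the filter. The 2 tools scale the libraries differently: among called genes 38.9% were higher in SMCs than in fibroblasts with edgeR and 27.3% with DESeq2, and 47.0% and 34.4% for the comparison with mesothelial cells, where DESeq2 moved the median of all genes by -0.24 and -0.28 on the log2 scale. The shift was -0.20 against endothelial cells and lymphocytes and -0.02 against myeloid cells. The values below are those of edgeR.

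**Figure D2:**
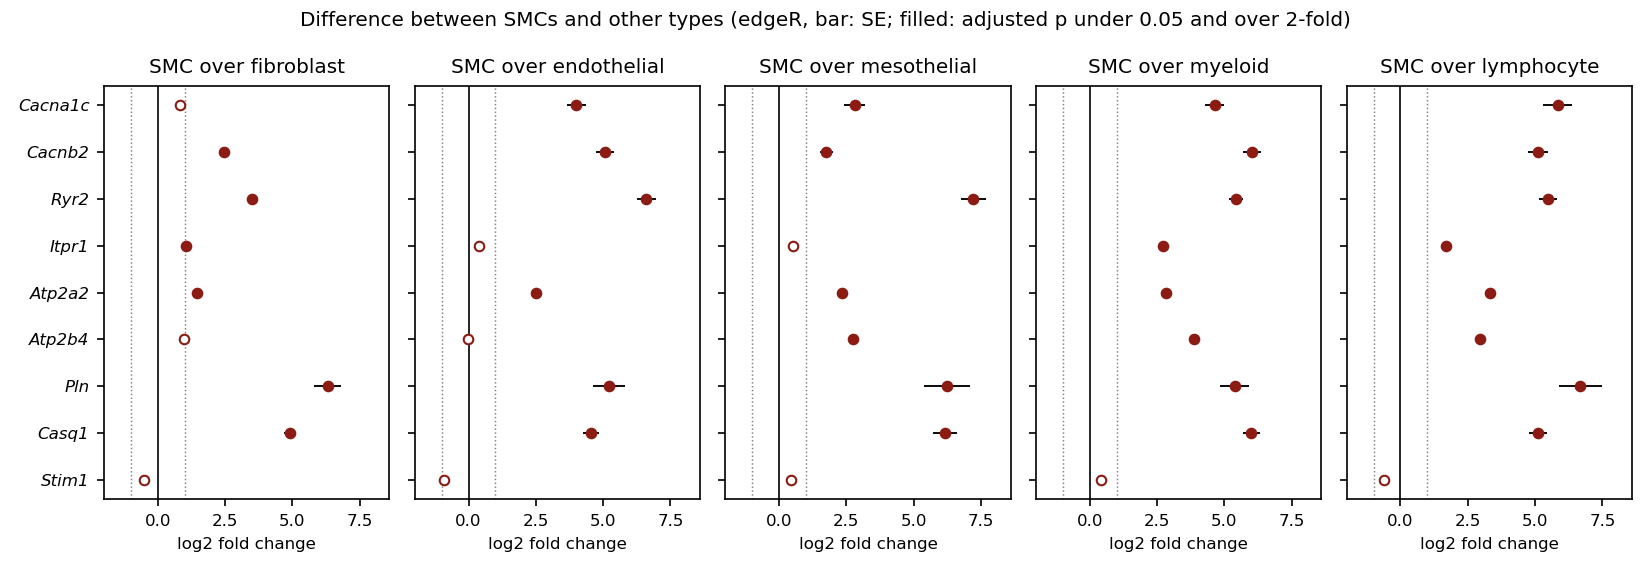
Log2 fold change of SMCs over 5 other cell types (x axis) for the 9 genes tested (y axis), with bars for the standard error and filled dots for adjusted p under 0.05 and over 2-fold (dotted lines). *Ryr2*, *Pln* and *Casq1* lie far to the right in every comparison and *Stim1* lies between -0.92 and 0.45.

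The level of SMC markers in other types was taken as a background for these comparisons. The 9 SMC markers, which fibroblasts, endothelial cells and leukocytes should largely lack, were found in fibroblasts at 4.53% to 15.4% of their SMC level, in endothelial cells at 1.24% to 9.11%, in lymphocytes at 2.43% to 5.19% and in myeloid cells at 1.11% to 3.55%. *Ryr2* in fibroblasts (8.57% and 10.4% of its SMC level), *Casq1* in fibroblasts (4.26% and 2.56%) and *Pln* in every other type (at most 4.85%) were within or below these ranges, so their low UMIs there were not read as expression. *Cacna1c* in fibroblasts (58.2% and 61.7%), *Atp2a2* in fibroblasts (40.3% and 37.3%) and *Itpr1* in all 5 other types (13.96% to 92.0%) were above them. The range in fibroblasts reached higher than that in leukocytes, and *Ryr2* in lymphocytes was at 2.08% and 2.41%. With a coarser clustering (Leiden resolution 0.5), the log2 fold change over fibroblasts was 5.02 for *Ryr2* and 5.71 for *Casq1*, in place of 3.51 and 4.91. The part of free RNA, and of the cells in each class, in these low UMIs was not tested.

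Voltage-gated entry was represented by the pore and a β subunit of the L-type channel. *Cacna1c* (ENSMUSG00000051331, chr6:118587240-119196418, minus strand, GRCm38 with GENCODE M21 as for all positions of genes here) encodes the pore-forming subunit. Its level was 23.7 CPM in SMCs of aorta 1 and 26.2 CPM in aorta 2. Fibroblasts had 13.8 and 16.1 CPM, endothelial cells 1.89 and 1.59 CPM, and mesothelial cells 1.10 and 9.77 CPM. The SMC and fibroblast values did not overlap, but the difference was under 2-fold, with a log2 fold change of 0.84 (SE 0.19, edgeR adjusted p = 0.000714), and DESeq2 gave 0.59 with an adjusted p of 0.237. It passed the 2-fold limit in 4 alternatives, at 1.20 with at least 5000 UMIs per cell, 1.10 with doublets kept, 1.29 with a coarser clustering (Leiden resolution 0.5) and 1.01 with calcium genes allowed in the clustering. The cells in both classes differed between these alternatives. Fibroblasts numbered 864 and 586, 1673 and 1162, 1407 and 1021, and 1409 and 1019 in that order, against 1635 and 1143 as reported, and in the first 3 some cells were named pericyte-like. The part of these cells in the result was not tested. Against endothelial cells it was 4.01 (SE 0.37, edgeR adjusted p = 6.89e-09), and 2.91 with at least 5000 UMIs per cell.

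*Cacnb2* (ENSMUSG00000057914, chr2:14603088-14987908, plus strand) encodes a β subunit, which carries the channel to the membrane and tunes its gating. It was measured at 38.3 and 34.4 CPM in SMCs, 11.02 and 16.6 CPM in mesothelial cells and 8.13 and 5.62 CPM in fibroblasts. The SMC values were above both, with log2 fold changes of 2.46 over fibroblasts (SE 0.18, edgeR adjusted p = 1.58e-10; 2.24 to 3.19 over the alternatives) and 1.75 over mesothelial cells (SE 0.24, edgeR adjusted p = 3.9e-06). Among the 4 β subunit genes, *Cacnb2* took 56.5% and 51.3% of UMIs in SMCs. *Cacnb3* led in fibroblasts (41.5% and 56.3%) and in mesothelial cells (66.0% and 70.0%). SMCs held 162 and 131 *Cacnb2* UMIs per 100 *Cacna1c* UMIs, against 58.9 and 34.8 in fibroblasts.

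Of the other 11 voltage-gated channel genes listed, 10 were tested against fibroblasts, of which 3 were higher in SMCs, 3 lower and 4 neither. For this count and those of the other roles below, the background over all genes is 9.87% higher and 15.5% lower. *Cacna2d1*, the α2δ subunit, had 154 and 165 CPM in SMCs against 70.7 and 76.6 CPM in fibroblasts (log2 fold change 1.21, SE 0.11). *Cacna1d*, the pore of a second L-type channel, had 34.0 and 39.5 CPM against 2.55 and 5.04 CPM, a log2 fold change of 3.43 (SE 0.21), and its level in SMCs exceeded that of *Cacna1c* in both aortas. The T-type pore *Cacna1g* went the other way, with 26.6 and 20.02 CPM in fibroblasts and 10 UMIs in SMCs of both aortas together (log2 fold change -5.86, SE 0.32, edgeR adjusted p = 2.49e-12).

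Release from the store showed a sharp contrast between the receptor families. *Ryr2* (ENSMUSG00000021313, chr13:11553102-12106945, minus strand), the ryanodine receptor of the heart, had 48.0 and 45.8 CPM in SMCs. Fibroblasts had 4.11 and 4.75 CPM, and in endothelial cells 2 UMIs and 1 UMI were found. The log2 fold change over fibroblasts was 3.51 (SE 0.17, edgeR adjusted p = 1.21e-13). It ranged from 3.27 to 5.02 over the alternatives and was highest with the coarser clustering. Of all ryanodine receptor UMIs in SMCs 98.4% and 98.5% belonged to *Ryr2*, and *Ryr1*, the skeletal muscle form, was at 0. Myeloid cells had the opposite makeup, with 92.2% and 96.3% of their ryanodine receptor UMIs from *Ryr1* (156 UMIs of the family in both aortas).

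*Itpr1* (ENSMUSG00000030102, chr6:108213096-108551109, plus strand), an inositol trisphosphate receptor, was expressed more broadly. It had 161 and 154 CPM in SMCs, followed by endothelial cells at 141 and 138 CPM. Mesothelial cells had 148 and 117 CPM and fibroblasts 84.2 and 77.5 CPM. Lymphocytes had 49.9 and 49.6 CPM and myeloid cells 23.4 and 21.6 CPM. The order was thus SMC, endothelial, mesothelial, fibroblast, lymphocyte, myeloid, with the endothelial and mesothelial values overlapping. The log2 fold change of SMCs was 1.06 over fibroblasts (SE 0.11, edgeR adjusted p = 2.38e-08) and 0.82 with DESeq2, below the 2-fold limit. Over endothelial cells it was 0.38 (SE 0.11, edgeR adjusted p = 0.00625), also under 2-fold.

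SMCs stood apart in the makeup of their inositol trisphosphate receptor UMIs. *Itpr1* made up 95.4% of the UMIs of its family in SMCs of each aorta. In fibroblasts it was 54.6% and 52.6%, in endothelial cells 39.3% and 37.1% and in myeloid cells 29.7% and 30.6%, where *Itpr2* led with 64.9% and 64.0%. *Itpr3* reached its highest share in mesothelial cells (26.3% and 26.2%). For each 100 *Itpr1* UMIs, SMCs held 29.8 and 29.6 *Ryr2* UMIs. Fibroblasts held 4.88 and 6.13, and their *Ryr2* UMIs were within the background range given above.

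**Figure D3:**
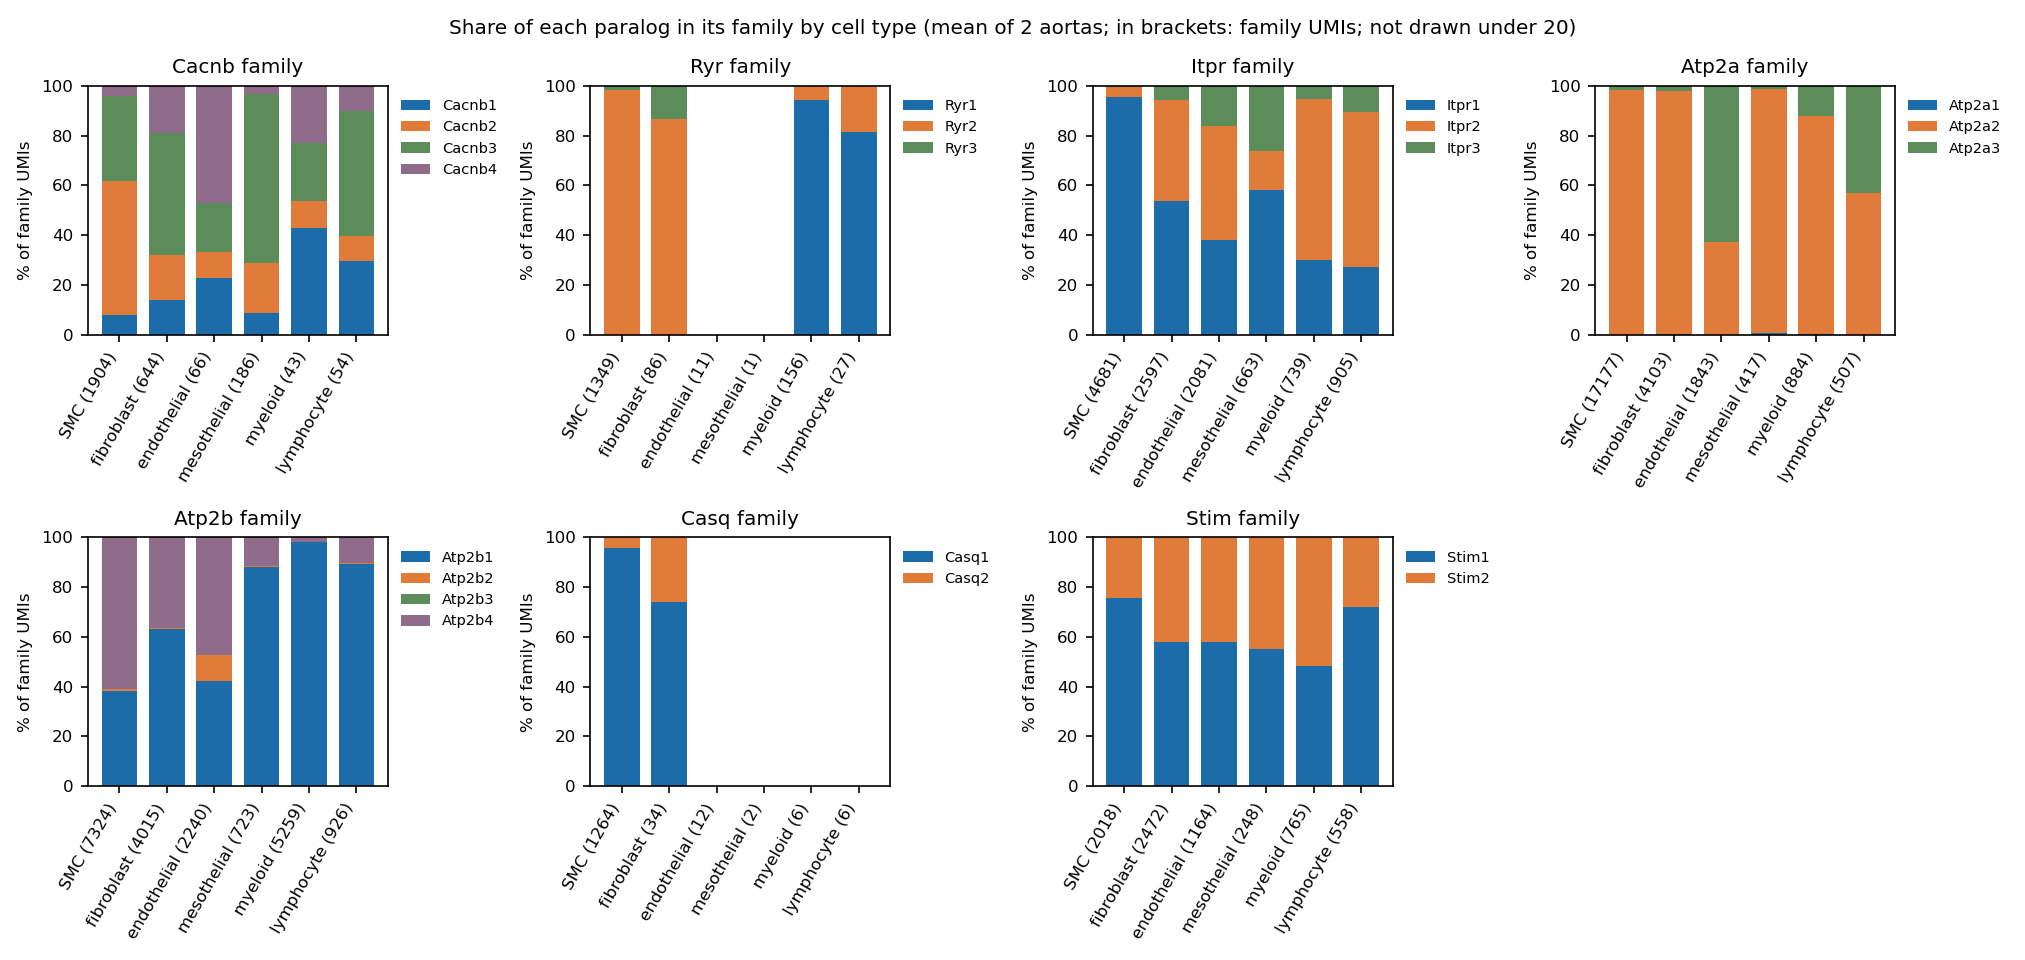
Share of each paralog in the UMIs of its gene family (y axis, percent, mean of 2 aortas) by cell type (x axis, with the UMIs of the family in both aortas in brackets; types under 20 UMIs are not drawn). In SMCs *Ryr2*, *Itpr1*, *Atp2a2* and *Casq1* each take over 95% of their family, and *Atp2a2* also does so in fibroblasts and mesothelial cells. Most UMIs of the family are *Atp2a3* in endothelial cells, and *Ryr1*, *Itpr2* and *Atp2b1* in myeloid cells.

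Among the other 17 store release genes, 12 were tested against fibroblasts, of which 5 were higher in SMCs, 4 lower and 3 neither. *Jph2*, a junctophilin that ties the store to the surface membrane, had 155 and 164 CPM in SMCs against 17.6 and 16.9 CPM in fibroblasts (log2 fold change 3.30, SE 0.11). *Mrvi1*, the IRAG protein through which cGMP kinase acts on the inositol trisphosphate receptor, had 268 and 260 CPM against 31.2 and 38.7 CPM (log2 fold change 3.03, SE 0.11). *Fkbp1a*, a binding protein of both receptor kinds, had the highest level of the list in SMCs (385 and 395 CPM), and endothelial cells had 684 and 662 CPM. *Trdn*, triadin of striated muscle, was at 0 UMIs in SMCs of both aortas, with 45 and 28 UMIs in fibroblasts.

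Uptake into the store rested on *Atp2a2* (ENSMUSG00000029467, chr5:122453513-122502225, minus strand), which encodes SERCA2. It was the most abundant of the 10 genes in SMCs, with 615 and 574 CPM. Fibroblasts had 248 and 214 CPM, mesothelial cells 153 and 129 CPM, endothelial cells 113 and 128 CPM, myeloid cells 82.7 and 74.0 CPM and lymphocytes 58.6 and 62.8 CPM. No neighbours in this order overlapped. The log2 fold change of SMCs was 1.46 over fibroblasts (SE 0.12, edgeR adjusted p = 1.01e-09) and 2.51 over endothelial cells (SE 0.13, edgeR adjusted p = 4.5e-13), the latter 1.85 with at least 5000 UMIs per cell. In SMCs 98.1% and 98.2% of SERCA UMIs were *Atp2a2*, and fibroblasts (97.5% and 98.3%) and mesothelial cells (97.9% and 98.5%) were alike. Myeloid cells had 88.3% and 87.1%, and lymphocytes 58.3% and 55.6%. In endothelial cells that share was 34.3% and 40.4%, and *Atp2a3*, SERCA3, gave the remainder.

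*Pln* (ENSMUSG00000038583, chr10:53337667-53345987, plus strand) encodes phospholamban, the inhibitor of SERCA2. It had 29.96 CPM in SMCs of aorta 1 and 16.4 CPM in aorta 2. Each of the other types had at most 5 UMIs in an aorta, and fibroblasts had 5 and 0. The fitted log2 fold change over fibroblasts was 6.31 (SE 0.50, edgeR adjusted p = 8.13e-10), a value that depends on the prior count at so few UMIs and ranged from 5.21 to 6.79 over the alternatives. Of the 10 genes, *Pln* differed most between the aortas in SMCs. It overlaps *Cep85l* on the other strand, and whether the counting used strand is not given in the sources used here. *Cep85l* itself had 23.7 and 20.7 CPM in SMCs and 24.4 and 20.2 CPM in fibroblasts, where *Pln* was near 0.

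At equal depth, with each cell thinned to 1000 UMIs, a *Pln* UMI was found in 2.25% and 1.18% of SMCs and in none of the lymphocytes (9.81% and 5.97% of SMCs and 0% and 0.275% of lymphocytes without thinning, where SMCs had a median depth of 7716 and 7488 UMIs and lymphocytes one of 4098 and 3913.5). For *Atp2a2* the shares were 41.6% and 41.2% of SMCs and 5.78% and 4.40% of lymphocytes. At so low a level these shares do not limit how many SMCs express *Pln*. In SMCs as a whole 4.87 and 2.86 *Pln* UMIs were counted per 100 *Atp2a2* UMIs.

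The calsequestrins differed from each other by more than an order of magnitude. *Casq1* (ENSMUSG00000007122, chr1:172209894-172219868, minus strand), known as the form of fast skeletal muscle, had 41.4 and 45.1 CPM in SMCs. In other types it was at most 2.52 CPM, and the log2 fold change over fibroblasts was 4.91 (SE 0.23, edgeR adjusted p = 1.51e-13), and 5.71 with the coarser clustering. *Casq2* (ENSMUSG00000027861, chr3:102086415-102146514, plus strand), the cardiac form, had 2.05 and 1.73 CPM in SMCs, from 34 and 20 UMIs. Fibroblasts had 1 and 7 UMIs, and endothelial, mesothelial, myeloid cells and lymphocytes had 0, which in endothelial cells allows up to 0.943 and 1.19 CPM. With no filter on low counts, the edgeR adjusted p of *Casq2* against fibroblasts was 0.00866. Within SMCs *Casq1* gave 95.3% and 96.3% of calsequestrin UMIs.

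Of 9 other genes for uptake and buffering, 5 were tested against fibroblasts, of which 2 were higher in SMCs, 1 lower and 2 neither. *Hrc*, a calcium-binding protein of the store, had 20.7 and 17.8 CPM in SMCs and 4 and 0 UMIs in fibroblasts. *Mrln*, myoregulin, a SERCA inhibitor of skeletal muscle, had 4.50 and 4.03 CPM in fibroblasts against 0.602 and 0.604 CPM in SMCs (log2 fold change -2.69, SE 0.40). The general reticulum buffer *Calr*, calreticulin, stood at 501 and 508 CPM in SMCs against 939 and 871 CPM, within the 2-fold limit (log2 fold change -0.75, SE 0.15).

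For extrusion across the plasma membrane, *Atp2b4* (ENSMUSG00000026463, chr1:133699457-133801041, minus strand) encodes the calcium pump PMCA4. It had 160.0 and 155 CPM in SMCs, 196 and 176 CPM in endothelial cells, and 79.5 and 93.2 CPM in fibroblasts. Endothelial values were above those of SMCs in both aortas on the CPM scale, but after scaling the log2 fold change was -0.03 (SE 0.13, edgeR adjusted p = 0.86), and its sign changed between processing alternatives, with a range of -0.21 to 0.30. Over fibroblasts it was 0.97 (SE 0.13, edgeR adjusted p = 1.08e-06), just under the 2-fold limit. It was 0.73 to 1.39 over the alternatives, of which 7 were over 2-fold. Among them was the fit with the SMCs of aorta 1 alone (1.02), where the spread came from the other types. *Atp2b4* was the main pump of its family in SMCs, with 61.0% and 60.5% of UMIs. *Atp2b1* led in fibroblasts (63.1% and 63.2%), mesothelial cells, lymphocytes and myeloid cells (97.4% and 98.7%). In endothelial cells the shares of *Atp2b4* (50.2% and 44.2%) and *Atp2b1* (39.5% and 45.1%) overlapped.

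Of 7 other extrusion genes 6 were tested against fibroblasts, with 3 higher in SMCs and the other 3 not called. *Atp2b1*, PMCA1, had 100.2 and 98.1 CPM in SMCs against 139 and 161 CPM, a log2 fold change of -0.50 (SE 0.13), under 2-fold. *Slc24a3*, a potassium-dependent sodium/calcium exchanger, had 50.4 and 49.7 CPM in SMCs against 9.50 and 10.5 CPM in fibroblasts (log2 fold change 2.42, SE 0.16). The exchanger *Slc8a2* had 10.8 and 14.5 CPM against 0.979 and 0.864 CPM (log2 fold change 3.81, SE 0.31). *Slc8a1*, the sodium/calcium exchanger best known from heart, had 53.9 and 48.2 CPM against 30.5 and 27.4 CPM, a log2 fold change of 0.91 (SE 0.12), under 2-fold.

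*Stim1* (ENSMUSG00000030987, chr7:102267806-102437319, plus strand) was the member not called higher in SMCs in any comparison. In SMCs it was at 55.4 and 53.3 CPM. Endothelial cells (119 and 118 CPM), fibroblasts (85.1 and 81.8 CPM) and lymphocytes (73.9 and 96.9 CPM) all lay above. Mesothelial cells (54.0 and 39.1 CPM) overlapped SMCs, and myeloid cells were at 38.6 and 37.4 CPM. The log2 fold change of SMCs was -0.92 against endothelial cells (SE 0.12, edgeR adjusted p = 1.19e-06) and -1.10 with DESeq2. It was -0.52 against fibroblasts (SE 0.11, edgeR adjusted p = 0.000465) and -0.61 against lymphocytes (SE 0.13, edgeR adjusted p = 0.000302). Each was below 0 in all alternatives run. The sign was the other way against myeloid cells (0.43, SE 0.13, edgeR adjusted p = 0.00571) and mesothelial cells (0.45, SE 0.16, edgeR adjusted p = 0.0266), also under 2-fold. *Stim1* gave 77.7% and 74.0% of the STIM UMIs in SMCs, against 58.5% and 57.5% in fibroblasts, while lymphocytes overlapped SMCs with 67.5% and 76.9%.

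Of 16 other genes of store-operated and other entry, 13 were tested against fibroblasts, with 3 higher in SMCs, 4 lower and 6 neither. *Stimate*, an activator of STIM proteins, had 214 and 178 CPM in SMCs against 44.4 and 48.7 CPM in fibroblasts and 23.3 and 27.0 CPM in endothelial cells (log2 fold change over fibroblasts 2.18, SE 0.12), a distribution unlike that of *Stim1*. *P2rx1*, the ATP-gated channel of smooth muscle, had 20.9 and 17.5 CPM in SMCs and 6 and 13 UMIs in fibroblasts (log2 fold change 4.18, SE 0.31). *Trpv2* had 19.3 and 17.5 CPM against 2.55 and 2.74 CPM (log2 fold change 2.90, SE 0.25). *Pkd2*, polycystin 2, was lower in SMCs, with 51.3 and 47.8 CPM against 204 and 197 CPM (log2 fold change -1.92, SE 0.10).

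Mitochondrial uptake and calcium effectors complete the pathway. Of 9 mitochondrial genes tested against fibroblasts, 4 were lower in SMCs and the other 5 were not called. *Mcub*, the subunit that dampens the mitochondrial uniporter, had 3.91 and 4.75 CPM in SMCs against 14.7 and 18.3 CPM in fibroblasts (log2 fold change -1.83, SE 0.18). *Mcur1*, a regulator of the uniporter, had 58.3 and 64.9 CPM against 44.7 and 42.3 CPM, a log2 fold change of 0.59 (SE 0.10), under 2-fold. Among the effectors *Camk2g*, a calcium-dependent kinase, was higher in SMCs, with 93.8 and 92.8 CPM against 24.9 and 28.1 CPM (log2 fold change 1.92, SE 0.12). Over all 79 other calcium genes 64 were tested, 18 were higher in SMCs than in fibroblasts, 16 lower and 30 neither, with a median log2 fold change of 0.39. Over all genes 9.87% were higher and 15.5% lower, with a median of -0.06.

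SMCs were then clustered again without the calcium genes, which gave 14 subsets. The 11 with at least 10 cells in each aorta were compared, and each is named here by its leading genes. Subset 0 (479 and 298 cells) was led by *Hspa1b* and *Atf3* and also by the cardiac lineage factors *Hand2* and *Tbx20*. Subset 2 was led by *Fbln1* and *Prss12*, subset 3 by *Hoxa7* and *Hoxb7*, subset 4 by *Vcam1* and *Timp1*, subset 5 by *Hhip* and *Chrdl2*, subset 6 by *Psd* and *Tnnt2*, subset 8 by *Nrn1* and *Scin*, and subset 10 by the p53 targets *Gdf15* and *Cdkn1a*. Subset 9 (68 and 58 cells) was led by *Pappa2* and *Pgf*, with *Notch3*, *Gja4* and *Kcna5* also among its leading genes. Subset 6 came mostly from aorta 1 (144 and 18 cells). Subsets 1 and 7 had a low depth, with medians of 1742 and 1858 UMIs. In subset 1 the nuclear RNA *Malat1* took 0.192% and 0.118% of UMIs, and in subset 7 it took 22.6% and 22.04%, against 2.59% to 4.78% in the other 9 subsets.

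All 9 genes that could be tested differed among these subsets (edgeR F test, adjusted p under 0.05), against 53.1% of the 8743 genes tested. Without the low-depth subsets 1 and 7, all 9 were again called, against 34.1% of genes. The subsets were drawn from the same cells, so these p-values describe the subsets and are no independent test of them. The adjusted p was smallest for *Pln* (edgeR, 1.15e-16) and *Casq1* (edgeR, 8e-14), and largest for *Atp2a2* (edgeR, 0.00018) and *Stim1* (edgeR, 0.0123). With coarser subsets the call of *Atp2a2* was lost (edgeR adjusted p = 0.142), and with a minimum of 5000 UMIs per cell that of *Stim1* (edgeR adjusted p = 0.119). The mean of both aortas in the highest subset was 1.91 times that of the lowest for *Atp2a2* and 13.6 times for *Cacnb2*. The value for *Cacnb2* compares the low-depth subsets 7 and 1, and without them the ratio was 5.07 for *Cacnb2* and 1.75 for *Atp2a2*. The ratio was higher still for *Pln* and *Casq1*, whose lowest subset had 3 UMIs or fewer in both aortas together.

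**Figure D4:**
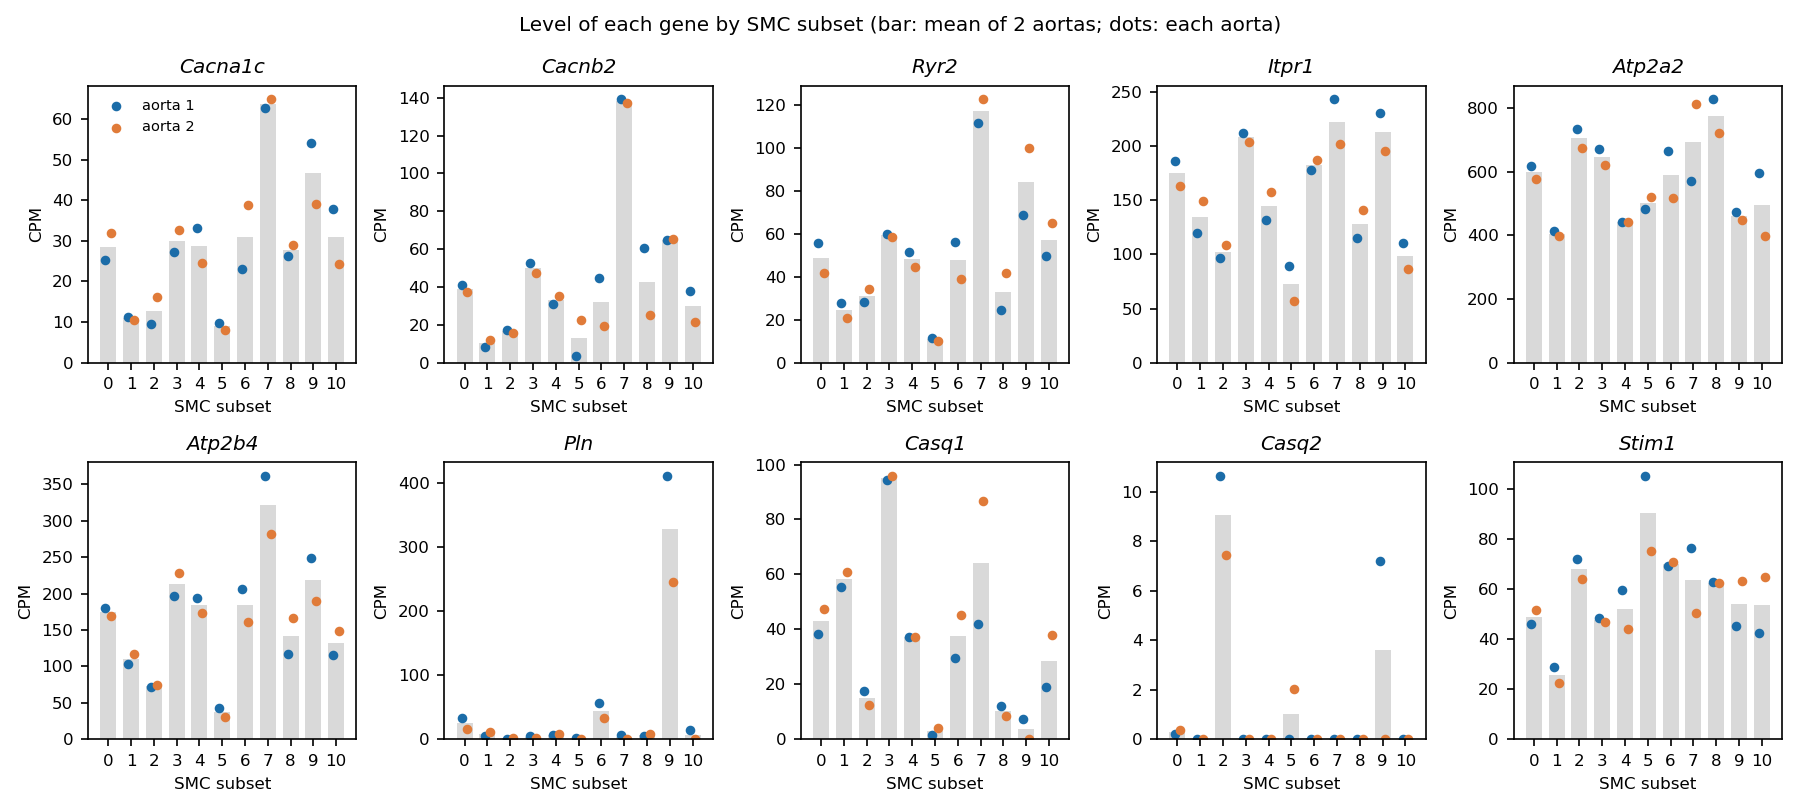
Level of the 10 genes in counts per 1000000 UMIs (CPM, y axis, linear and from 0, a scale for each gene) in 11 SMC subsets (x axis, numbered as in the text), with bars for the mean of 2 aortas and dots for each aorta. *Pln* peaks in subset 9, *Casq1* in subset 3 and *Casq2* in subset 2, while the channel and receptor genes are highest in the low-depth subset 7 and low in subset 5.

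*Pln* was concentrated in subset 9. It had 411 and 246 CPM there, against 55.6 and 32.3 CPM in subset 6 and 32.5 and 16.2 CPM in subset 0. In the other 8 subsets it was between 0 and 14.2 CPM. Subset 9 held 3.06% and 3.61% of SMCs but 45.8% and 59.5% of their *Pln* UMIs, a level 24.5 and 35.5 times that of all other SMCs. Without this subset the SMC level was 16.8 and 6.92 CPM.

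The same cells did not have more of the pump. *Atp2a2* was at 472 and 448 CPM in subset 9, 0.762 and 0.774 times the level of the other SMCs. *Pln* UMIs per 100 *Atp2a2* UMIs were therefore 87.0 and 54.9 in subset 9, 8.36 and 6.25 in subset 6, 5.24 and 2.80 in subset 0 and at most 2.62 in the other 8 subsets. With cells thinned to 1000 UMIs a *Pln* UMI was found in 23 of 68 cells (33.8%, exact binomial 95% interval 22.8 to 46.3) and 9 of 58 cells (15.5%, 7.35 to 27.4) of subset 9. *Cep85l*, on the other strand, was at 36.1 and 32.6 CPM in this subset. The 9 endothelial markers summed to 10.8 and 30.4 CPM and the 7 pericyte markers to 737 and 617 CPM there, against 487 to 6383 CPM for the latter in the other 10 subsets, and the 9 SMC markers were at 48661 and 47167 CPM. The 7 adipocyte markers, 5 of them at 0, summed to 330 and 454 CPM, against at most 285 and 391 CPM in the other 10 subsets. The pericyte markers did not move together. *Higd1b* was at 18.0 and 2.17 CPM in subset 9 and at 0 in the other 10, and *Cox4i2* was at 103 and 91.3 CPM, below subset 8 and above the other 9 in both aortas. *Rgs5* (128 and 50.005 CPM) and *Abcc9* (23.4 and 43.5 CPM) were below their levels in the other 10 subsets, and *Vtn* was at 0. The part of these markers in the result was not tested.

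*Casq1* had another pattern. Its level was highest in the *Hoxa7* and *Hoxb7* subset 3, with 94.3 and 95.9 CPM, where 40.4% and 45.6% of its UMIs in SMCs lay, against 12.7% and 15.9% of the cells. In subset 9, where *Pln* peaked, 4 UMIs and 0 UMIs were found, and in subset 5 there were 1 and 2. Subset 2 (17.4 and 12.4 CPM) and subset 8 (12.1 and 8.30 CPM) were also low. The few UMIs of *Casq2* lay in subset 2, with 27 of 34 and 18 of 20, or 79.4% (exact binomial 95% interval 62.1 to 91.3) and 90.0% (68.3 to 98.8). That subset held 13.1% and 18.6% of the cells. Its 7 pericyte markers summed to 3528 and 2786 CPM, mostly *Rgs5* (2876 and 2157 CPM), with *Higd1b* and *Vtn* at 0. The part of these markers in the result was not tested. *Pln*, *Casq1* and *Casq2*, whose upstream sequences are printed above, were thus highest in 3 different subsets, in both aortas. With no filter on low counts *Casq2* also passed the F test among subsets.

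**Figure D5:**
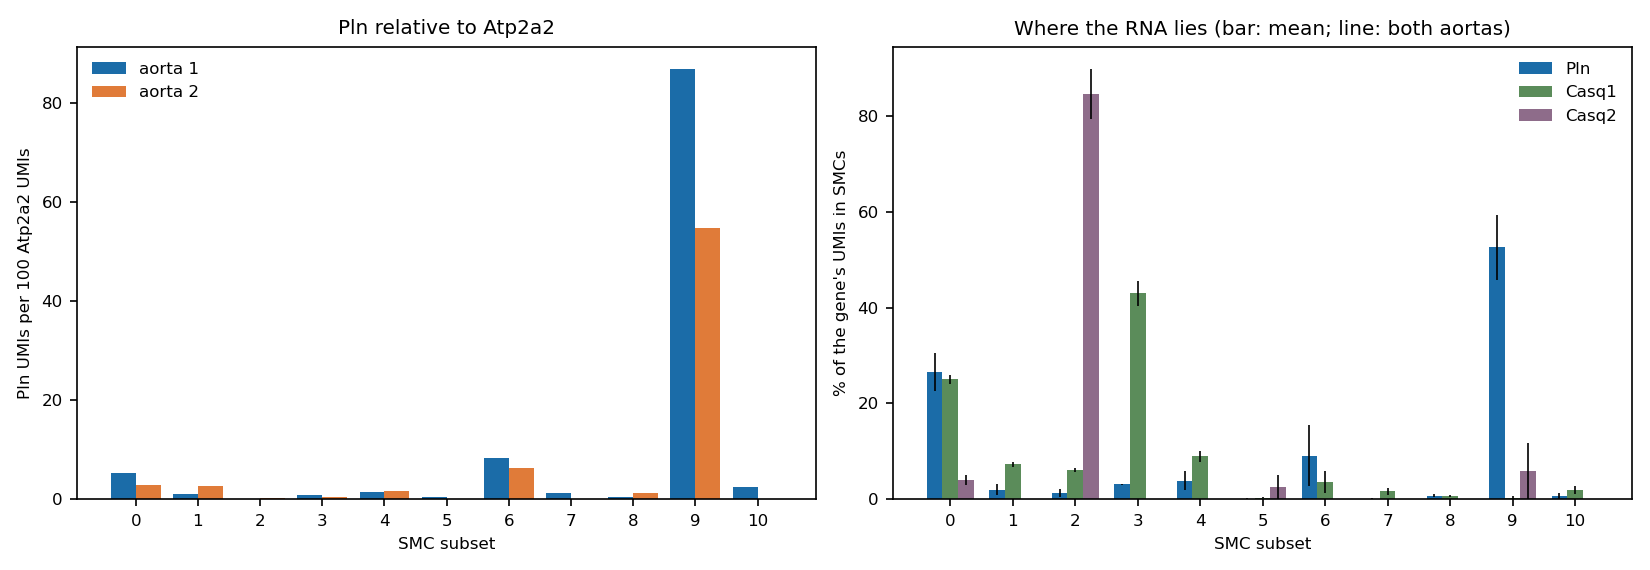
Left, *Pln* UMIs per 100 *Atp2a2* UMIs (y axis) in 11 SMC subsets (x axis), with a bar for each aorta; right, share of the SMC UMIs of *Pln*, *Casq1* and *Casq2* (y axis, percent) that lay in each subset, with bars for the mean of 2 aortas and lines between the values of both. Subset 9 reaches 87.0 and 54.9 *Pln* UMIs per 100 *Atp2a2* UMIs, and the 3 genes have their largest shares in subsets 9, 3 and 2.

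The channel, receptor and plasma membrane pump genes varied together in part. *Cacna1c*, *Cacnb2*, *Ryr2*, *Itpr1* and *Atp2b4* each had their highest mean in subset 7 and their next highest in subset 9. For *Itpr1* the values in subset 7 (244 and 202 CPM) overlapped those in subset 9 (231 and 196 CPM) and subset 3 (212 and 204 CPM). *Atp2b4* overlapped between subset 9 and subset 3. It was 1.59 and 1.23 times the level of the other SMCs in subset 9, and 1.29 and 1.70 times in subset 3. In subset 7 *Cacnb2* had 139 and 137 CPM and *Ryr2* 111 and 123 CPM, 3.72 and 4.14 times and 2.35 and 2.73 times the level of the other SMCs. These are the values of a subset with low depth and a high share of *Malat1*. Its SMC markers summed to 23863 and 22648 CPM. Its B cell markers (710 and 462 CPM, with 5 of 7 at 0) and macrophage markers (41.8 and 93.8 CPM) had the highest sums of the compared subsets. The part of these traits in the result was not tested. *Stim1*, with 76.6 and 50.5 CPM there, and *Pln*, with 1 UMI and 0 UMIs, did not have their highest level in this subset. In subset 9 *Cacna1c* had 54.1 and 39.1 CPM, *Ryr2* 68.5 and 100.01 CPM and *Atp2b4* 249 and 189 CPM.

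At the other end, 4 of these 5 genes had their lowest mean in the *Hhip* and *Chrdl2* subset 5, and *Cacnb2* had its lowest in subset 1. In subset 5 *Cacna1c* had 9.88 and 8.14 CPM, *Ryr2* 11.5 and 10.2 CPM, and *Atp2b4* 42.8 and 30.5 CPM. *Atp2b4* was there 0.260 and 0.190 times the level of the other SMCs. The SMC markers were also lowest in this subset, with a sum of 14092 and 14508 CPM against 22228 to 59427 CPM in the other 10. Its 9 fibroblast markers had the highest sum of the 11 subsets (1780 and 2102 CPM), its 7 pericyte markers summed to 4060 and 3042 CPM, and *Kcnj8* (433 and 336 CPM) and *Abcc9* (421 and 383 CPM) were highest there. The other 5 pericyte markers were not highest there in the mean of both aortas, with *Rgs5* at 2947 and 2075 CPM, *Cspg4* at 216 and 214 CPM, *Cox4i2* at 42.8 and 34.6 CPM and *Higd1b* and *Vtn* at 0. The part of these markers in the result was not tested. *Stim1* had its highest mean there instead, with 105 and 75.3 CPM, and its lowest in subset 1 with 28.8 and 22.6 CPM. *Atp2a2* was highest in subset 8 (829 and 722 CPM) and subset 2 (735 and 676 CPM) and lowest in subset 1 (412 and 397 CPM). The values of subsets 8, 2 and 7 overlapped. In subset 8 the pericyte markers summed to 3774 and 6383 CPM, mostly *Rgs5* (2816 and 5399 CPM), and the SMC markers to 22228 and 27623 CPM. In subset 2 the sum of the pericyte markers was also high and mostly *Rgs5*, as given above. *Cox4i2* was highest in subset 8 (154 and 116 CPM), and *Higd1b* and *Vtn* were at 0 in both subsets. Their part in the result was not tested.

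For each gene, the genes of most similar level across the 22 sums of aorta and subset were sought among 2970 genes with at least 50 CPM in SMCs, as a description over sums that share cells, libraries and depth. For *Atp2b4* they were *Mcam* (Pearson's r 0.96), *Tnxb* (0.93) and *Kcnab1* (0.93), and for *Itpr1* *Mcam* (0.89), the SMC marker *Smtn* (0.87) and *Tnxb* (0.85). *Ryr2* was most like *Adam33* (0.93), *Mast4* (0.92) and *Lama5* (0.91), *Cacna1c* like *Mast4* (0.90), *Asap2* (0.89) and *Ppp1r12a* (0.86), and *Cacnb2* like *Asap2* (0.89), *Ntrk3* (0.87) and *Camk2g* (0.83). *Adam33* is itself a leading gene of the low-depth subset 7. *Casq1* was most like *Wnt16* (0.87), *Josd2* (0.84) and *Cbr2* (0.83), and *Pln* like *Gucy1a1* (0.86), a subunit of the nitric oxide receptor, *Dip2c* (0.79) and *Hspb1* (0.75). *Stim1* was most like *Stxbp3* (0.90), *Gata6* (0.86) and *Thrap3* (0.85), and *Atp2a2* like *Ldlrad4* (0.74), *Rsbn1l* (0.74) and *Trip11* (0.73). *Casq2*, with its few UMIs, was most like *Adamts2* (0.67), *Prss12* (0.62) and *Serpinb6b* (0.62).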

How the data were processed

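Thoracic aortas of 2 mice gave 1 droplet library each (10x Genomics, 3′ chemistry). The deposited values are raw UMI counts per gene and cell that the authors made with Cell Ranger 4.0.0 on mm10 with eGFP and tdTomato added. The submitters' processing notes also name Seurat 4.0. The libraries held 8947 and 6263 cells and 47009780 and 30919996 UMIs.

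The labels give 6278 and 4300 cells after the submitters' own filter. Here cells with over 200 genes, 1000 to 25000 UMIs and under 10% mitochondrial UMIs were kept (6744 and 4698). Scrublet called 205 and 84 doublets, which were removed. The remaining cells were clustered with scanpy 1.11.5 (2000 variable genes, 30 components, 15 neighbours, Leiden resolution 1) without calcium, reporter and mitochondrial genes, and clusters were named from marker lists. SMCs were clustered again in the same way. Sums of UMIs for each type in each aorta (at least 10 cells in each aorta) were fitted with the edgeR 4.0.16 quasi-likelihood test (TMM, filterByExpr, Benjamini-Hochberg adjustment over all genes tested) in R 4.3.3, which was tested on simulated data. Genes were called at an adjusted p under 0.05 and a log2 fold change over 1 in size, and among SMC subsets at an adjusted p under 0.05. DESeq2 1.42.0 with a local dispersion trend was an alternative. Its parametric trend was at its limit of convergence and was set aside after the data were seen. The aortas are separate samples, but with 2 of them p-values rest on little spread.

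The same aorta number marks the same animal by design. Deviations from the mean correlated between types at -0.04 to 0.10 (median 0.04, 21 pairs of types). Counting intervals and floors (3 counts) cover counting error only. The 10 genes and all lists were chosen with earlier results of these data known. Beside the 10 genes, each role of the calcium list names the 2 genes of highest level in SMCs and the 2 of largest fold change past the threshold (most of them printed, some not reported here), and each gene names the 3 most like it. Promoter sequences are from RefSeq.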

Additional observations from a re-analysis of the deposited data

Results flagged for a closer look

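The cells that the filters removed also held RNA of the 10 genes. In aorta 1 there were 3894 UMIs of these genes in 2408 such cells, or 662 CPM against 1175 CPM in SMCs, and in aorta 2 there were 2130 UMIs in 1649 cells, or 649 CPM against 1106 CPM. *Atp2a2* gave the most, with 1788 and 1004 UMIs, and *Pln* had 35 and 7. These cells entered no comparison as reported, but the doublets and the cells outside the UMI limits among them entered the alternatives that kept them.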

How the results depend on the processing

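Of 585 fold changes of the 9 genes recomputed under the alternatives, 567 gave the same call and sign, 1 lost the call, 12 gained it and 5 changed sign. In 47 of the 585 the fold moved by over 1.5 times, each time where other cells or classes entered the sums. The 5 changes of sign were all *Atp2b4* against endothelial cells, at 0.30 with 5000 to 25000 UMIs per cell, 0.26 with doublets kept, 0.26 and 0.10 with Leiden resolutions of 0.5 and 2, and 0.019 without SMC replicate 2 (-0.03 as reported, and -0.078 to 0.019 with 1 SMC sum left out). DESeq2 gave 1 gene lower than in endothelial cells in place of none. The median share of UMIs in SMCs (79.4%) was 55.9% with doublets kept, 57.6% and 67.2% with resolutions of 0.5 and 2, 83.7% with calcium genes allowed in the clustering, and 74.1% to 78.7% with 1 aorta left out. With at least 5000 UMIs, with doublets kept and with both other resolutions, some cells were named pericyte-like. At 0.5 these were 723 and 546 cells, beside 1727 and 1185 SMCs and 1407 and 1021 fibroblasts, so that both classes were smaller than reported. The median share of SMCs with a UMI at 1000 UMIs (3.94%) was 0.278% for at least 2 UMIs, 7.33% at 2000 UMIs, and 3.78% to 3.86% with 1 aorta left out. With the aorta as replicate block the calls of the 9 genes numbered 6, 6, 8, 8, 7 and 9, as reported, and 1384 genes were higher and 2181 lower than in fibroblasts. Among 54 subset results 52 were kept. With 2 aortas and few UMIs, differences in *Casq2* outside SMCs were not detectable at this depth.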
